A study of Mus musculus with 6 samples.

Results

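The respiratory chain genes described here are the protein-coding genes of the count table whose symbols start with Nduf, Uqcr, Atp5 or mt-. Sdha to Sdhd, the cytochrome c oxidase subunits of the Cox5 to Cox8 families, Cyc1 and Cycs complete the set. The rule is one of names only and found 105 of the 48709 genes in the table, of which 92 lie on nuclear chromosomes and 13 on the mitochondrial genome. Cox4i1 and Cox4i2, also subunits of complex IV, have symbols outside the rule and are given beside it. Ndufa4 and Ndufa4l2 carry a complex I name but are placed with complex IV here, because Ndufa4 is known as a subunit of that complex.

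The cells were macrophages washed from the mouse peritoneum and sorted as F4/80+ CD11b+, untreated, from C57BL/6 mice of 6 to 8 weeks. One group was wild-type and the other Zeb1 (+/-), mice with 1 intact allele of the transcription factor Zeb1 in all cells as far as the labels say; no driver of the deletion is named. Each genotype had 3 libraries, and each library pooled 2 mice. Values were compared between genotypes in RNA-seq gene counts, given as CPM, which is the count of a gene per 1000000 counts of its library after scaling.

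The respiratory chain passes electrons from NADH (complex I) and succinate (complex II) through ubiquinone to complex III, cytochrome c and complex IV, which reduces oxygen. The protons pumped on the way drive ATP synthase, complex V. Complexes I, III, IV and V are built from subunits of both genomes, while complex II is encoded in the nucleus alone. The mitochondrial genome is transcribed from both strands as long precursors that are cut into single mRNAs. In macrophages the balance of respiration and glycolysis is known to shift with activation.

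The sequences that decide how the mitochondrial rows of the table can be read are those shared with a stretch of nuclear DNA. On chromosome 1 of GRCm38, between 24611535 and 24616197 on the minus strand, the annotation holds copies of 7 of the mitochondrial genes, each listed in the table as a gene of its own. The copies of mt-Co2 (681 bases aligned), mt-Atp6 (678), mt-Co3 (783), mt-Nd4l (294) and mt-Nd4 (876 of its 1378 bases) have 0 mismatches to the mitochondrial gene. Gm28438, the copy of mt-Nd3, differs from it in 1 of 345 bases, and Gm29216 differs from mt-Co1 in 6 of 492. Further copies on chromosome 2 held few counts. Gm13340, with 27.5% of the 50-base stretches of mt-Co1, had 63 over the 6 libraries. Gm13341, with 35.3% of those of mt-Co2, had 50, and both are included where copies are summed. The first 100 bases of mt-Nd3 (chrM:9459-9558, plus strand) and of Gm28438 (chr1:24613020-24613119, minus strand) are shown because they hold the only base by which the aligned parts differ. It stands in capitals and is T3C, counted from 1 at the first base of mt-Nd3, with the base of mt-Nd3 first.
mt-Nd3: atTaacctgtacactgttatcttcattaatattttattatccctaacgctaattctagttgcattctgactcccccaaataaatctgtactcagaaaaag
Gm28438: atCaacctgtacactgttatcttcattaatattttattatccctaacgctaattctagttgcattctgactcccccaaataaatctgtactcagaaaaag

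Mitochondrial genes also overlap one another. The last 43 bases of mt-Atp8 are the first 43 of mt-Atp6, both subunits of the membrane part of ATP synthase, on the plus strand at chrM:7927-7969. This stretch is shown because a read that lies in it can be counted for either gene.
mt-Atp8 and mt-Atp6: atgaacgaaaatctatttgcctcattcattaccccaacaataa
The other overlaps are mt-Nd4l with mt-Nd4 (7 bases), mt-Atp6 with mt-Co3 (1 base) and mt-Nd5 with mt-Nd6 (14 bases on opposite strands). The strand setting of the counting was not given in the sources used here, so reads of mt-Nd5 and mt-Nd6 in those 14 bases cannot be told apart.

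Promoters of nuclear subunits are shown for the genes in which the motif of NRF1, a known activator of respiratory chain genes, and an E-box of the kind ZEB1 binds both lie before the start. RefSeq promoters of build GRCm38.p6, 250 bases before to 50 after the start, matched 72 of the 87 nuclear genes that could be tested. The palindrome of NRF1, the letters GCGCA followed directly by TGCGC, was found in 7 of the 72 (9.72%), against 0.977% of 27025 promoters. The ETS motif CCGGAAG, searched on both strands, was in 16 (22.2%, against 9.12% of all promoters), and the YY1 motif AAGATGGC in 8 (11.1%, against 2.88%). The E-box CAGGTG, also on both strands, was in 15 (20.8%), against 20.03% of all promoters. Of the 11 promoters of nuclear members whose groups did not overlap between genotypes (below), 1 held the NRF1 letters, 1 the ETS motif, 2 the YY1 motif and 2 the E-box. These motifs do not contain one another, and a match is a run of letters, not a measured binding site. Atp5g2 and Atp5k were the 2 nuclear genes of the set with the NRF1 and E-box letters both upstream of the start, chosen after the search. The 250 bases before each start follow (Atp5g2 at chr15:102671048-102671297 and Atp5k at chr5:108434400-108434649, both on the minus strand), with the matches to these 2 motifs in capitals.
Atp5g2: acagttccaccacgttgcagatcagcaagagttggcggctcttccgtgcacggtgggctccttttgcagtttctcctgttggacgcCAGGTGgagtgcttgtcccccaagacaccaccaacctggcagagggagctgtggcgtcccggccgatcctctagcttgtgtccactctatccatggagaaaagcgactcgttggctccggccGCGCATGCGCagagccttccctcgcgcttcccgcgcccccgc
Atp5k: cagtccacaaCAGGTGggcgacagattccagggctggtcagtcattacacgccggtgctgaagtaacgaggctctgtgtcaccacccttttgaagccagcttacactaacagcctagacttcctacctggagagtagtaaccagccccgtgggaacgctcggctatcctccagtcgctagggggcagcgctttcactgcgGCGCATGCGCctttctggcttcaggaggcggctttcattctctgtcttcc
Atp5g2, a gene of the membrane ring of ATP synthase, stood at 114, 108 and 93.7 CPM in wild-type replicates 1 to 3 and 105, 116 and 114 in Zeb1 (+/-) replicates 1 to 3. Atp5k, a small subunit of the same enzyme, stood at means of 29.7 ± 3.33 and 34.6 ± 3.26 CPM (SD, n = 3 each). The groups overlapped for both genes.

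The libraries held 17859872 to 42165006 counts. Zeb1 itself, the check of the labels, was at 5.44, 7.56 and 7.22 CPM in wild-type and 3.85, 3.45 and 3.62 CPM in Zeb1 (+/-), groups that did not overlap (log2 fold change -0.89, adjusted p = 0.0522, edgeR). Adgre1, which encodes F4/80, lay at 2159 to 2230 CPM in wild-type and 2604 to 2646 CPM in Zeb1 (+/-), without overlap (log2 fold change 0.26, adjusted p = 0.111 in edgeR), and Itgam, which encodes CD11b, at 4688 to 5362 CPM with overlap. Of the 8 macrophage markers, 3 were higher in Zeb1 (+/-) at an unadjusted p under 0.05 in edgeR and without overlap (Adgre1, Gata6 and Icam2, log2 fold changes of 0.26, 0.31 and 0.30), and Csf1r was lower without overlap. The 8 summed to 11029 to 11466 CPM in wild-type and 11500 to 12016 CPM in Zeb1 (+/-). Markers of mesothelium and fibroblasts summed to 0.558 to 1.99 CPM. Markers of B cells summed to 166, 149 and 296 CPM in wild-type and to 123, 106 and 92.0 CPM in Zeb1 (+/-), so the groups did not overlap. Of 14 tested B cell markers 12 were lower in Zeb1 (+/-) at an unadjusted p under 0.05 in edgeR, and 1, Cxcr5, passed the adjusted threshold (6.56 and 3.60 CPM, adjusted p = 0.0483). Over all tested genes, 6.3% were higher and 8.26% lower at that unadjusted p. Without overlap, 9.6% were higher and 10.3% lower. The sum of structural RNAs, abundant non-coding RNAs that poly(A) selection should remove, stood low in a pair of wild-type libraries, at 4.14 CPM (replicate 1) and 8.69 CPM (replicate 2), and reached 42.2 to 45.5 CPM in the other 4. The part of these differences in the results below was not tested beyond the models given with them. In sorted bulk RNA, fewer cells of a type and less RNA per cell cannot be told apart.

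As sets, the mRNAs of the 2 genomes stood at unlike levels. Per kilobase of transcript, and with the counts of their nuclear copies added, the 13 mitochondrial mRNAs had a median of 1485 CPM per kilobase over the 6 libraries, and the 92 nuclear ones 50.8. The highest mitochondrial level was that of mt-Co1, the catalytic subunit of complex IV, at 4386 CPM per kilobase. The lowest was 9.32 for mt-Nd6, a complex I subunit and the only mitochondrial mRNA encoded on the minus strand. The mitochondrial mRNAs with their copies took 1.97% to 2.51% of all counts in a library, and 1.25% to 1.55% without the copies.

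Among nuclear genes the order of the complexes by median level per length was V (108 CPM per kilobase), IV (65.8), III with cytochrome c (63.9), II (59.5), accessory subunits of I (40.7), core subunits of I (30.01) and assembly factors of I (5.08). Complexes II to IV lie close together in this order and their ranges overlap widely. The median of IV is taken over 18 genes, among them the nearly silent tissue isoforms described below. Those isoforms pull it down, so the place of IV in this order holds only with them counted. The highest levels of their classes included those of Atp5g2 (246 CPM per kilobase), Cox7a2l (213), a factor and homologue of Cox7a linked to supercomplexes, and Uqcrh (196), the hinge subunit of complex III. They were followed by Ndufa1 (105), Sdhd (72.1), a membrane anchor of complex II, and Ndufaf7 (8.79), a methyltransferase needed for complex I assembly.

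**Figure D1:**
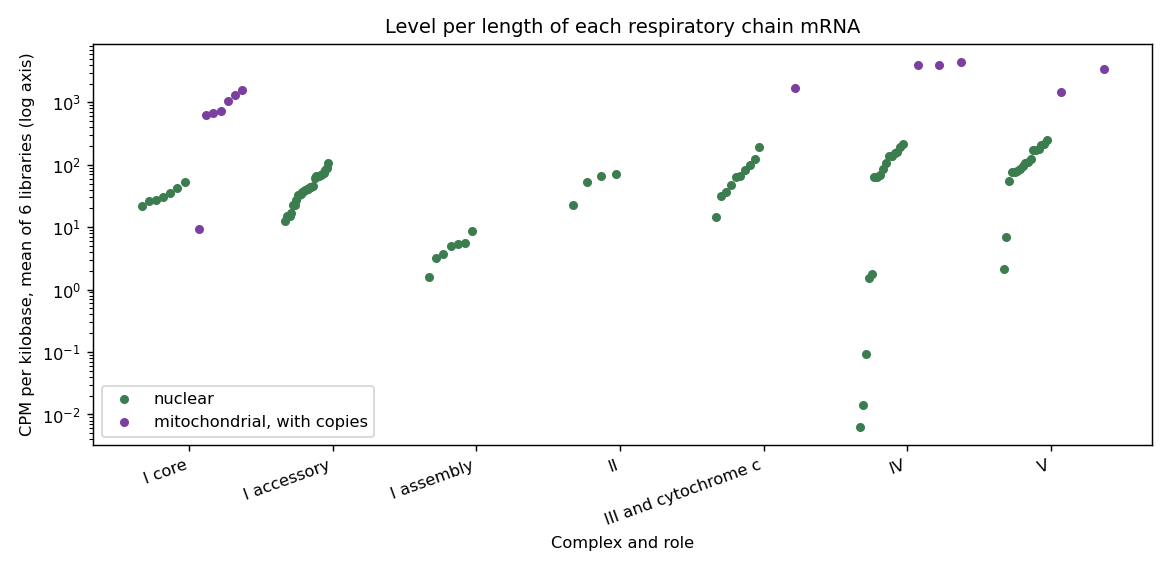
Level per length of each respiratory chain mRNA on a log axis (CPM per kilobase, mean of 6 libraries), by complex and role; each point is 1 gene, green for nuclear genes and purple for mitochondrial genes with the counts of their copies added. Cox7b2 and Cox8c, at 0 counts in every library, cannot be drawn on a log axis; mt-Co1 is the highest point at 4386 and the nuclear points end at 246 with Atp5g2.

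Isoform genes of complex IV stood at very unequal levels. Cox6a1, Cox6b1, Cox7a2, Cox7b, Cox8a and Ndufa4, the forms found in most tissues, had means of 41.7 to 102 CPM in either genotype. Cox6b2, known from testis, stood at 0.785 ± 0.102 CPM in wild-type and 0.655 ± 0.261 in Zeb1 (+/-) (SD, n = 3 each). Cox7a1, a muscle form, stood at 0.681 ± 0.113 and 0.698 ± 0.145 CPM. Cox6a2, Cox8b and Ndufa4l2 had at most 3 counts in any library, and Cox7b2 and Cox8c had 0 in all 6. These 5 genes did not pass the filter on low counts, which left 100 members for the test, 87 nuclear and 13 mitochondrial. Cox4i1, outside the rule, stood at 173 ± 5.99 CPM in wild-type and 187 ± 10.4 in Zeb1 (+/-), while Cox4i2, its hypoxia-linked form, had counts in 1 library only.

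The 3 genes of the proteolipid ring of ATP synthase encode one mature protein. Their sum was 255, 234 and 213 CPM in wild-type and 240, 264 and 260 CPM in Zeb1 (+/-). Atp5g2 gave the largest mean in both genotypes (105 and 112 CPM), Atp5g3 followed with 85.2 ± 4.84 and 93.1 ± 5.11 CPM, and Atp5g1 with 43.9 ± 6.92 and 49.9 ± 2.45 CPM (SD, n = 3 each). The sum overlapped between genotypes, and so did each of the 3 genes.

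Whether Zeb1 gene dose moved these genes was tested over all 12940 genes that passed the filter. No member passed an adjusted p of 0.05 in edgeR's quasi-likelihood test, where 0.587% of all genes did. At an unadjusted p under 0.05 in the same test, 17 of the 100 members were higher in Zeb1 (+/-) and 0 were lower, where 6.3% of all tested genes were higher and 8.26% lower. The groups did not overlap for 14 members, all higher in Zeb1 (+/-), which compares with 9.6% of all genes higher and 10.3% lower. The median 95% interval of a member, not adjusted for the number of genes, reached 0.19 to either side on the log2 scale. Changes smaller than that were mostly not detectable with 3 pooled libraries. Larger ones could also miss the adjusted threshold, as Ndufb4 did at 0.36 (adjusted p = 0.108 in edgeR).

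A log2 fold change above 0, that is higher in Zeb1 (+/-), was found for 79 of the 87 tested nuclear members (90.8%), against 49.9% of all tested genes. Their median log2 fold change was 0.11, and that of all tested genes was -0.00. The count above 0 was 75 to 82 when any library was left out, and 61 with the mean of B cell markers as a covariate (49.9% of all genes). It was 78 with a term for the libraries high in structural RNA (49.8% of all genes). That term takes up wild-type replicates 1 and 2, so the count rests on wild-type replicate 3 alone. It cannot show whether the direction holds after adjustment. The members at an unadjusted p under 0.05 were far less stable: leaving out wild-type replicate 1 gave 29 higher in edgeR's test, wild-type replicate 2 gave 3 and wild-type replicate 3 gave 9. Leaving out Zeb1 (+/-) replicate 2 gave 4 and Zeb1 (+/-) replicate 3 gave 7. Over all genes the share at that unadjusted p in the same fits was 7.4%, 3.61%, 5.67%, 3.46% and 5.93%.

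**Figure D2:**
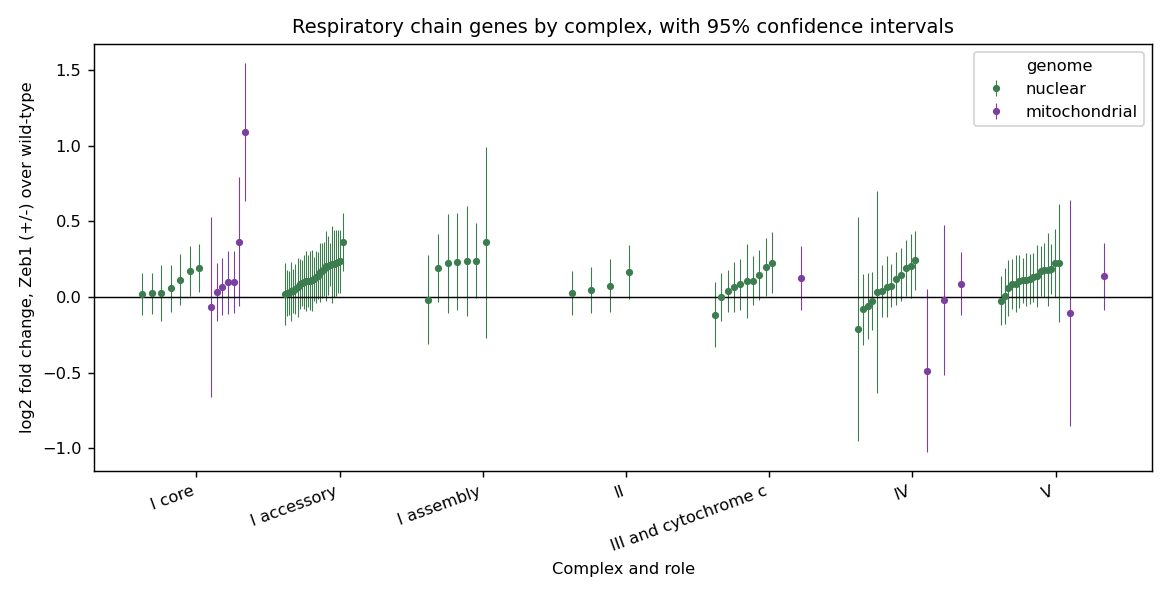
Log2 fold change of Zeb1 (+/-) over wild-type for the 100 tested respiratory chain genes, by complex and role; points are genes (green nuclear, purple mitochondrial, the latter without their copies) and bars are 95% confidence intervals. Most green points lie between 0 and 0.25, and mt-Nd3 stands apart at 1.09.

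The core subunits of complex I carry its flavin, iron-sulphur clusters and ubiquinone site. All 7 nuclear core genes had log2 fold changes above 0, from 0.02 to 0.19, and 2 of them did not overlap between genotypes. That is 28.6% of a small class, where 9.6% of all tested genes were higher without overlap. Ndufv2 (chr17:66078638-66101559), an iron-sulphur subunit of the NADH end, stood at 42.8, 38.9 and 43.6 CPM in wild-type and 45.7, 48.3 and 48.9 CPM in Zeb1 (+/-). Its log2 fold change was 0.19 ± 0.07 (SE), with an adjusted p of 0.262 in edgeR. Ndufs1, the largest iron-sulphur subunit, was the other, with 49.3 to 56.0 CPM in wild-type and 56.2 to 62.2 CPM in Zeb1 (+/-), groups set apart by less than 1 CPM. Ndufv1, which binds NADH, had the smallest value at 0.02, with 43.2, 44.1 and 45.2 CPM against 45.2, 46.0 and 42.9.

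The accessory subunits surround this core and stabilise it. All 29 had log2 fold changes above 0 (median 0.12, range 0.02 to 0.36). At an unadjusted p under 0.05 in edgeR there were 8 (27.6%, against 6.3% of all tested genes higher). Groups did not overlap for 6 (20.7%, against 9.6% of all tested genes higher). Ndufb4 (ENSMUSG00000022820.3, chr16:37647170-37654453), a small subunit of the membrane arm, had the highest value, with 10.6, 10.5 and 10.7 CPM in wild-type and 13.1, 14.4 and 13.2 CPM in Zeb1 (+/-). Its log2 fold change was 0.36 ± 0.08 (SE), with an adjusted p of 0.108 in edgeR. The 3 wild-type libraries were nearly level with one another and all 3 Zeb1 (+/-) libraries were above them.

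A retrocopy on chromosome 15, Ndufb4c (Gm3244 in the table), holds 18.3% of the 50-base stretches of Ndufb4. It stood at 15.2, 14.3 and 14.6 CPM in wild-type and 13.6, 17.4 and 17.97 CPM in Zeb1 (+/-), so the split of reads between them is uncertain. Ndufb9 (chr15:58933756-58939488), another membrane arm subunit, had 41.004 to 43.9 CPM in wild-type and 47.6 to 51.1 CPM in Zeb1 (+/-), and shares 15.6% of its stretches with other genes. Its log2 fold change was 0.21 ± 0.06 (SE), with an adjusted p of 0.184 in edgeR. The remaining accessory genes without overlap were Ndufb5, Ndufc1, Ndufa9 and Ndufa12. Wild-type replicate 1 lay just below Zeb1 (+/-) replicate 1 for Ndufb5 (44.25 and 44.33 CPM) and Ndufc1 (13.88 and 13.90 CPM). The same held for Ndufa12 (18.90 and 19.04 CPM). Ndufb5, Ndufc1 and Ndufa9 were not at an unadjusted p under 0.05 in edgeR. Ndufa9 stood out by its spread, with 43.1 to 49.1 CPM in wild-type and 49.97, 50.08 and 49.98 CPM in Zeb1 (+/-).

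Ndufa1, the accessory gene with the highest level per length, stood at 43.0, 39.4 and 40.8 CPM in wild-type and 42.4, 52.4 and 47.1 CPM in Zeb1 (+/-). The groups overlapped through Zeb1 (+/-) replicate 1, which lay below wild-type replicate 1. Ndufb2 was the accessory gene nearest to 0 at 0.02, with 17.6 ± 1.83 and 17.8 ± 0.625 CPM (SD, n = 3 each).

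Assembly factors put complex I together and are not part of the finished enzyme. Of 7 members, 6 had log2 fold changes above 0 and their median was 0.23, the highest of the classes, with wide intervals at low counts. Ndufaf6 had the highest value at 0.36 (95% interval -0.27 to 0.99), with 1.92, 1.28 and 1.17 CPM in wild-type and 2.51, 1.89 and 1.43 CPM in Zeb1 (+/-). Ndufaf3 had the lowest at -0.02, with 8.68, 7.42 and 6.69 CPM against 6.81, 7.98 and 7.71. Both overlapped between genotypes, while Ndufaf5 did not, at 3.56 to 4.48 CPM in wild-type and 4.69 to 4.77 CPM in Zeb1 (+/-).

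Summed over members, assembly factors came to 53.0, 45.8 and 47.8 CPM in wild-type and 57.2, 56.5 and 53.8 CPM in Zeb1 (+/-). The nuclear core subunits summed to 322, 309 and 319 CPM in wild-type and 331, 348 and 329 CPM in Zeb1 (+/-). Of the 7 nuclear classes these were the 2 whose sums did not overlap, with ratios of means of 1.14 and 1.06. The accessory subunits summed to 905 to 993 CPM in wild-type and 971 to 1076 CPM in Zeb1 (+/-) and did overlap, again through wild-type replicate 1.

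Complex II, succinate dehydrogenase, links the chain to the TCA cycle. Its 4 genes had log2 fold changes of 0.02 to 0.17, none at an unadjusted p under 0.05 in edgeR. Sdha, the flavoprotein that oxidises succinate, had the smallest, with 190, 180 and 196 CPM in wild-type and 201, 187 and 188 CPM in Zeb1 (+/-). Sdhc, a membrane anchor, had the highest, with 66.7 ± 6.13 and 74.9 ± 3.74 CPM, and Sdhd stood at 87.3 ± 4.97 and 90.2 ± 3.43 CPM (SD, n = 3 each). The sum of the 4 genes overlapped between genotypes, at 387 to 418 CPM in wild-type and 415 to 426 CPM in Zeb1 (+/-).

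Complex III passes electrons from ubiquinol to cytochrome c. Of 10 nuclear members, cytochrome c included, 8 had log2 fold changes above 0 (median 0.10). At an unadjusted p under 0.05 in edgeR 2 were higher, where 6.3% of all tested genes were. No member was free of overlap. Uqcr10, a small structural subunit, had the highest value at 0.23 ± 0.09 (SE, adjusted p = 0.296 in edgeR), with 35.4, 30.1 and 32.5 CPM in wild-type and 34.8, 41.6 and 37.9 CPM in Zeb1 (+/-). Uqcrq, another small subunit of the complex, had the lowest at -0.12, with 31.2, 25.5 and 25.4 CPM against 23.6, 26.1 and 26.0. Uqcrh stood at 102 ± 6.54 and 112 ± 6.54 CPM (SD, n = 3 each).

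Cycs, cytochrome c itself, stood at 44.1 ± 5.94 and 47.4 ± 4.73 CPM (SD, n = 3 each). Its processed copy Gm10053 on chromosome 19 holds 25.3% of its 50-base stretches and took 6.75 to 10.5 CPM. With both summed, 45.1 to 59.97 CPM in wild-type overlapped with 51.2 to 62.0 CPM in Zeb1 (+/-).

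Complex IV, cytochrome c oxidase, was the nuclear class with the least uniform direction. Of 13 tested genes 9 lay above 0 (median 0.07, range -0.21 to 0.24), and 2 did not overlap. These 2 make 15.4%, where 9.6% of all tested genes were higher without overlap. Cox7b (chrX:106015700-106022450), a small subunit, stood at 65.4, 53.3 and 57.2 CPM in wild-type and 66.8, 73.6 and 67.7 CPM in Zeb1 (+/-). Its log2 fold change was 0.24 ± 0.09 (SE), with an adjusted p of 0.251 in edgeR. Its groups were set apart narrowly, by wild-type replicate 1 and Zeb1 (+/-) replicate 1.

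Cox7a2, the form of Cox7a in most tissues, stood at 42.9, 39.8 and 42.5 CPM in wild-type and 42.9, 52.2 and 47.7 CPM in Zeb1 (+/-). Its groups counted as free of overlap only by the third decimal of wild-type replicate 1 (42.871) and Zeb1 (+/-) replicate 1 (42.878). The other widely expressed forms overlapped: Cox6a1 had means of 89.0 and 87.2 CPM, Cox6b1 93.9 and 102, Cox8a 76.9 and 72.8, and Cox7a2l 223 and 235. Ndufa4 stood at 83.2 ± 6.52 and 92.2 ± 5.34 CPM (SD, n = 3 each).

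Cox6b2 had the lowest log2 fold change of the class at -0.21, with a 95% interval of -0.95 to 0.53 at under 1 CPM. Cox8a was the widely expressed form with the lowest value, -0.08, and within wild-type it ranged from 63.9 CPM in replicate 3 to 87.8 CPM in replicate 1, wider than the 70.6 to 74.4 CPM of Zeb1 (+/-).

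ATP synthase had 16 of 17 nuclear members above 0 (median 0.12, range -0.03 to 0.23), 2 of them at an unadjusted p under 0.05 and free of overlap. These were Atp5h, a subunit of the peripheral stalk, with 88.6 to 100.3 CPM in wild-type and 103 to 115 CPM in Zeb1 (+/-), and Atp5c1, the rotor subunit gamma, with 112 to 129 CPM and 133 to 142 CPM. Their adjusted p-values in edgeR were 0.297 and 0.325. As 11.8% of the class, they compare with 9.6% of all tested genes higher without overlap and 6.3% higher at that unadjusted p. Atp5d, the rotor subunit delta, was the single member below 0 at -0.03, with 74.9, 76.3 and 67.3 CPM against 67.8, 72.0 and 74.9. Atp5s, a factor named for the enzyme, had the highest value at 0.23 with a 95% interval of -0.16 to 0.61. It stood at 2.89 ± 0.291 and 3.41 ± 0.467 CPM (SD, n = 3 each). Like Atp5sl, it is placed in this class by its name and not as a subunit.

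**Figure D3:**
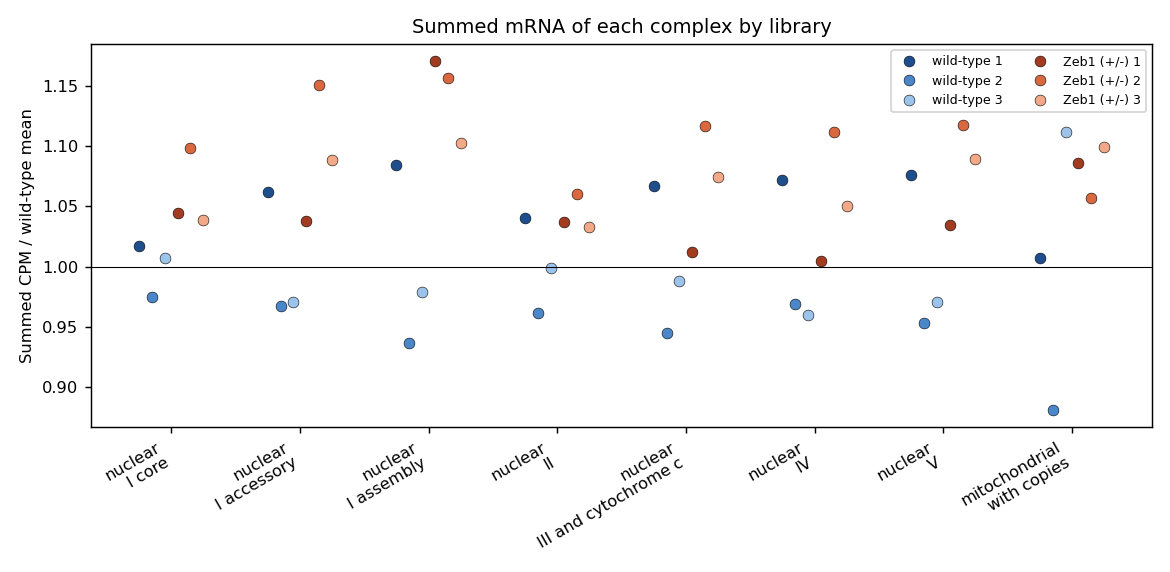
Summed CPM of each nuclear class and of the 13 mitochondrial mRNAs with their copies, each divided by the mean of the wild-type libraries; points are libraries (blue wild-type, orange Zeb1 (+/-)), and the axis does not start at 0. Only I core and I assembly show no overlap between genotypes, and wild-type replicate 1 lies among the Zeb1 (+/-) libraries in most classes.

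The nuclear genes also differed together between libraries of a genotype. Their sum was 5402, 4866 and 4946 CPM in wild-type and 5220, 5665 and 5442 CPM in Zeb1 (+/-), a ratio of means of 1.07, and the groups overlapped through wild-type replicate 1. Of the 87 tested nuclear members, 44 had their lowest value in wild-type replicate 2 and 32 in wild-type replicate 3, while 58 had their highest in Zeb1 (+/-) replicate 2. Over all tested genes, those shares were 19.8%, 16.6% and 17.0%. As the median deviation from the mean of each gene over the 6 libraries, in log2 CPM, wild-type replicates 1 to 3 stood at 0.04, -0.11 and -0.10 and Zeb1 (+/-) replicates 1 to 3 at -0.02, 0.12 and 0.06. Wild-type replicate 1 thus stood above Zeb1 (+/-) replicate 1. Beside these deviations stand the B cell sums given above, which were lowest in the 3 Zeb1 (+/-) libraries, and their part was not tested beyond the fit with that covariate.

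**Figure D4:**
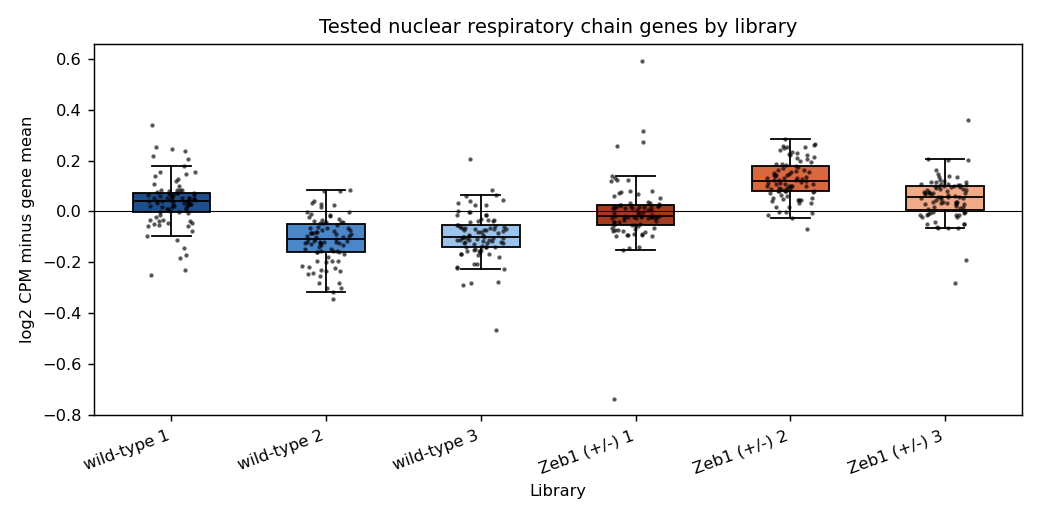
Log2 CPM of each of the 87 tested nuclear respiratory chain genes minus its mean over the 6 libraries, by library; points are genes, boxes span the quartiles with the median as a line, and whiskers reach the last point within 1.5 box lengths. Medians run from -0.11 in wild-type replicate 2 to 0.12 in Zeb1 (+/-) replicate 2, with wild-type replicate 1 at 0.04 above Zeb1 (+/-) replicate 1 at -0.02.

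Respiratory chain mRNAs are short, and fold changes in these libraries differed by length. The tested members had a median transcript length of 811 bases, against 2666 for the 12911 tested genes with a length. Across those genes, which are not independent replicates, the Spearman correlation of length with log2 fold change was -0.19. The median log2 fold change was 0.07 in the shortest sixth (up to 1294 bases, 2152 genes) and -0.06 in the longest, beside 0.11 for the nuclear members. Within the members the correlation was -0.07, and the part of length in their direction was not tested.

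For the mitochondrial genes, the rows of the table were first read as they stand. Of the 13, 9 had log2 fold changes above 0 and their median was 0.09. The median was not stable across fits. It was -0.030, with 4 of 13 above 0, in the fit with the structural RNA term. That term takes up wild-type replicates 1 and 2, so this fit sets Zeb1 (+/-) against wild-type replicate 3 alone. With the B cell covariate the median was 0.32. Leaving out a library moved it as far as 0.0091 (without wild-type replicate 2) and 0.17 (without wild-type replicate 3), and to 0.14 without wild-type replicate 1. Among the genes counted mainly under their own names, cytochrome b, mt-Cytb, stood at 1886, 1609 and 2061 CPM in wild-type and 2097, 1966 and 1993 CPM in Zeb1 (+/-). The row mt-Co1 stood at 5909, 5372 and 6751 CPM against 6320, 6164 and 6675. Both were lowest in wild-type replicate 2 and overlapped between genotypes. Of the complex I core subunits, mt-Nd1 stood at 1432 ± 168 CPM in wild-type and 1534 ± 53.6 in Zeb1 (+/-), mt-Nd2 at 1063 ± 124 and 1137 ± 61.7, mt-Nd4 at 1773 ± 149 and 1858 ± 118, and mt-Nd5 at 1146 ± 118 and 1173 ± 52.2 (SD, n = 3 each). The ATP synthase subunit mt-Atp8 stood at 289 ± 38.6 and 317 ± 15.1 CPM. The log2 fold changes of these 7 genes lay between 0.03 and 0.14, and their groups overlapped. For mt-Nd6 it was -0.07 at a mean of 4.92 CPM in wild-type and 4.76 in Zeb1 (+/-), with 7.39 CPM in wild-type replicate 1 above the other 5 libraries.

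The 5 genes with at least 97.99% of their 50-base stretches shared were scattered. The row mt-Nd3 (ENSMUSG00000064360.1, chrM:9459-9806), a small core subunit of complex I, stood at 13.8, 7.56 and 8.29 CPM in wild-type and 19.2, 23.9 and 20.4 CPM in Zeb1 (+/-). Its log2 fold change was 1.09 ± 0.20 (SE), the highest of all members, with an adjusted p of 0.0575 in edgeR. This row passed 0.05 without a low-count filter (as 2.47% of all genes did), in DESeq2 (2.71%), in limma-voom (0.611%) and without wild-type replicate 1 (0.468%), and passed a threshold of 0.1 (1.65%). The row mt-Co2, a core subunit of complex IV, had the lowest of all members at -0.49 ± 0.24, with 75.0, 53.7 and 44.4 CPM against 46.1, 27.6 and 51.0. The row mt-Atp6 ran from 62.1 CPM in wild-type replicate 3 to 190 CPM in wild-type replicate 1, a range that holds all 3 Zeb1 (+/-) values. The row mt-Co3 had a log2 fold change of -0.02, and mt-Nd4l one of 0.37 with a 95% interval of -0.06 to 0.79, both with overlap.

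These rows held a small part of the reads that their sequence and its copy received together. The mitochondrial row took 3.49% to 9.61% of the counts of mt-Nd3 and Gm28438. Its share was 0.966% to 2.87% for mt-Co2 with Gm28661 and Gm13341, and 1.00% to 1.82% for mt-Co3 with Gm28437. The row took 2.49% to 8.18% for mt-Atp6 with Gm10925 and 14.9% to 25.4% for mt-Nd4l with Gm10222. For mt-Co1 with Gm29216 and Gm13340 the share was 90.6% to 92.5%, and for mt-Nd4 it was at least 99.99%. Most counts of the first 5 pairs thus stood under the name on chromosome 1, and where the sequences are identical the locus a read came from cannot be told.

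Summing each gene with its copies brought the libraries together. For the genes listed next the copy held most of the counts, so the sum mainly follows the copy. The ratio of the highest to the lowest library went from 3.16 to 1.24 for mt-Nd3, from 2.72 to 1.30 for mt-Co2 and from 3.05 to 1.33 for mt-Atp6. It went from 1.77 to 1.31 for mt-Co3 and from 1.96 to 1.17 for mt-Nd4l. With Gm28438 added, mt-Nd3 stood at 222, 199.7 and 237 CPM in wild-type and 240, 248 and 240 CPM in Zeb1 (+/-). The groups still did not overlap, and the log2 fold change was 0.14 with a 95% interval of -0.02 to 0.31 (adjusted p = 0.405, edgeR). Gm28438 alone, which holds most of those counts, stood at 208, 192 and 229 CPM against 221, 224 and 219, with overlap. The share of the counts of the pair that was assigned to mt-Nd3 was 3.49% to 6.20% in wild-type and 8.00% to 9.61% in Zeb1 (+/-), and what set it was not tested.

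With copies summed, 12 of the 13 mitochondrial genes lay above 0, with a median of 0.10 and a range of -0.07 to 0.17, and mt-Nd6 was the exception. No member passed an adjusted p of 0.05 in edgeR, where 0.619% of 12931 genes did. The summed mt-Co2 stood at 2614, 2216 and 2884 CPM in wild-type and 2852, 2859 and 2870 CPM in Zeb1 (+/-), and mt-Co3 at 2911 ± 342 and 3282 ± 88.9 CPM (SD, n = 3 each). All 13 together came to 22455, 19633 and 24771 CPM in wild-type and 24201, 23563 and 24501 CPM in Zeb1 (+/-), a ratio of means of 1.08 with overlap. In this sum wild-type replicate 2 was the lowest library and wild-type replicate 3 the highest, unlike its low rank for nuclear genes.

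**Figure D5:**
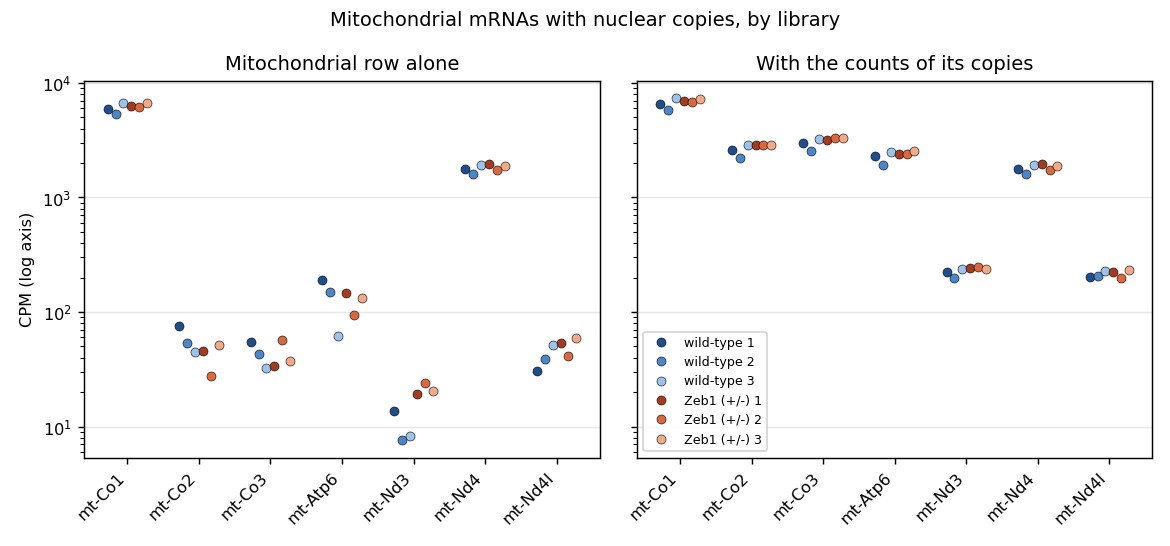
CPM on a log axis of the 7 mitochondrial mRNAs with copies on chromosome 1, by library (blue wild-type, orange Zeb1 (+/-)); the left panel shows the mitochondrial row alone and the right panel the row with the counts of its copies. On the left mt-Nd3 lies at 7.56 to 23.9 CPM with the genotypes apart, and on the right at 199.7 to 248 CPM.

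The balance of the 2 genomes did not separate the genotypes. The ratio of summed mitochondrial mRNA with copies to summed nuclear mRNA was 4.16, 4.03 and 5.01 in wild-type and 4.64, 4.16 and 4.50 in Zeb1 (+/-). Wild-type replicate 3 was the highest of the 6. The mitochondrial ribosomal RNAs mt-Rnr1 and mt-Rnr2, which are largely removed by poly(A) selection, had log2 fold changes of 0.33 and 0.26 (adjusted p = 0.268 and 0.352, edgeR). The groups overlapped for mt-Rnr1. For mt-Rnr2 they did not, at 150 to 188 CPM in wild-type and 190 to 246 CPM in Zeb1 (+/-).

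Genes that serve the chain without belonging to the rule were counted from 10 lists, which cover assembly factors, further subunits, mitochondrial genome expression, regulators of biogenesis, the TCA cycle and ubiquinone synthesis. Of 94 genes 91 were tested and 0 passed an adjusted p of 0.05 in edgeR, where 0.587% of all genes did. At an unadjusted p under 0.05, 9 were higher and 3 lower, where 6.3% and 8.26% of all tested genes were. Of the 91, 67 had log2 fold changes above 0, against 49.9% of all genes, with a median of 0.07. Without overlap, 14 (15.4%) were higher and 4 lower, where 9.6% and 10.3% of all tested genes were. The genes named next were chosen after their values were seen. Lrpprc, which stabilises mitochondrial mRNAs, stood at 44.9, 43.8 and 46.8 CPM in wild-type and 53.1, 52.6 and 55.5 CPM in Zeb1 (+/-), without overlap (log2 fold change 0.25 ± 0.06, adjusted p = 0.126 in edgeR). Tfam, which packages and transcribes mitochondrial DNA, stood at 20.5 ± 0.517 and 23.7 ± 1.24 CPM, also without overlap (adjusted p = 0.243 in edgeR).

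In the other direction, Ppargc1b, a coactivator of respiratory chain genes, stood at 4.63, 6.00 and 4.78 CPM in wild-type and 2.34, 2.65 and 4.48 CPM in Zeb1 (+/-), without overlap (log2 fold change -0.68, adjusted p = 0.251 in edgeR). Polg, the mitochondrial DNA polymerase, stood at 82.6 to 94.1 and 74.5 to 80.6 CPM, also without overlap (adjusted p = 0.317 in edgeR). Nrf1, whose motif was searched above, had means of 26.1 and 25.3 CPM. Citrate synthase, Cs, of the TCA cycle list, had 127 and 123 CPM, an mRNA level and not a measure of mitochondrial content.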

How the data were processed

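Expected counts per gene were deposited by the authors for 6 libraries, per the labels from stranded TruSeq mRNA kits, as whole numbers with unequal totals. Build GRCm38, STAR, RSEM and edgeR are named without roles or versions, per the submitters' processing notes. Not given in the sources used here are the strand setting, the annotation release and the treatment of reads with several matches.

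Genes were kept by filterByExpr (minimum count 10, minimum total 15), scaled by TMM and tested by edgeR 4.0.16 (quasi-likelihood, genotype only, two-sided, R 4.3.3), with Benjamini-Hochberg adjustment over 12940 genes and a threshold of 0.05. The model was tested on simulated data. Intervals use the t distribution of the fit. Libraries are pools of 2 mice and nothing says more of their origin, so p-values measure the spread between pools. With totals of 17859872 to 42165006 counts, intervals cover counting error and that spread only.

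Coordinates, transcript lengths (the shortest principal protein-coding transcript) and shared 50-base stretches were read from GENCODE's GRCm38 annotation, which held 99.3% of the gene identifiers when versions were ignored. Copies with at least 25% of the stretches of a member were summed with it as an alternative chosen after seeing the data. Promoters are from RefSeq (GRCm38.p6). No protein sequences were used here.

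The genes named are the 13 mitochondrial ones, isoform groups, any member or listed gene past the threshold, and in each class the highest level per length and the highest and lowest log2 fold change; others are given as examples of their class after their values were seen. 1 gene that this rule names is counted in its class but not reported here. The members and lists were chosen with earlier results of these data known. Replicate numbers carry no stated pairing and are left out of the model. Alternatives were RLE scaling, 2 other filters, a replicate block, DESeq2 1.42.0, limma-voom (limma 3.58.1), robust moderation, an adjusted p under 0.1, a 2-fold minimum, scaling without mitochondrial genes, a structural RNA term, a B cell covariate, and each library left out.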

Additional observations from a re-analysis of the deposited data

How the results depend on the processing

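The count of members past the threshold was 0 under edgeR's test and 1, always mt-Nd3 as a row without its copy, under 5 alternatives. These were no low-count filter (log2 fold change 1.10, adjusted p = 6.84e-07), DESeq2 (1.10, 3.67e-06), limma-voom (1.12, 0.0481), an adjusted p under 0.1 (1.09, 0.0575) and leaving out wild-type replicate 1 (1.43, 0.00423). Leaving out a library in turn gave 0 to 1 members. With copies summed after seeing the data, the count was 0 and mt-Nd3 stood at 0.14. The median log2 fold change of mitochondrial members was -0.030 with the structural RNA term, with 4 of 13 above 0. That term takes up wild-type replicates 1 and 2. The fit thus sets Zeb1 (+/-) against wild-type replicate 3 alone, the library with the highest mitochondrial sum. With the B cell covariate the median was 0.32, and the cause was not tested. Leaving out a library gave 0.0091 to 0.17. That of nuclear members stayed between 0.07 and 0.16, and their summed level between 1.05 and 1.11 times wild-type. The mitochondrial ratio stayed between 1.01 and 1.12. Calls over all genes ran from 2 to 522 against 76 as reported, and were 14 with a 2-fold minimum.

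The correlations of same-numbered deviations were -0.25, -0.03 and -0.17, so they showed no pairing by replicate number. With 3 libraries per genotype they cannot exclude one. With the replicate block, edgeR called 0 members and 15 genes in all, and 5 members were higher and 1 lower at an unadjusted p under 0.05. For 42 named genes that were tested, 51 of 796 alternative values had the other sign, none of them past the threshold. Low counts limit Ndufaf6, Atp5s, Cox6b2, Cox7a1 and mt-Nd6, whose intervals are the widest outside the rows with copies.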
